A study of Mus musculus with 90 samples.

Results

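Days 3 and 4 of differentiation were compared with 36h and 48h in primary skeletal myoblasts of MyoD-/- genotype. A sample entered the comparison when its title named 3d or 4d (the later pair) or 36hr or 48hr (the earlier pair), which took 36 of 90 arrays, or 12 of 30 RNA samples. Each of these RNA samples was read on the Affymetrix chips MG_U74Av2, MG_U74Bv2 and MG_U74Cv2, so every chip held 6 samples of 3d and 4d against 6 of 36h and 48h. The samples came from 3 cultures that the titles call 1999, P6 and P10, with 1 sample per culture and time. The labels do not explain these names. They also do not say that the cultures came from separate animals, so p-values measure the spread between these samples, which may be technical. All 12 samples carried the MyoD-/- genotype. The cells had been grown on collagen with bFGF and fetal bovine serum in Ham's F10 and then differentiated in high-glucose DMEM with little horse serum. With no wild-type culture, the comparison concerns time within the mutant and not an effect of the genotype.

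Myoblasts that lose growth factors leave the cell cycle, fuse and fill with sarcomeres, the repeating units of actin and myosin filaments that contract. MyoD, Myf5, myogenin and Myf6 are the transcription factors that start this programme, and they bind E boxes in the promoters of muscle genes, often beside sites for MEF2 factors. Days 3 and 4 are the stage at which newly fused myotubes are known to build contractile and calcium-handling proteins on top of the first wave of muscle genes. The *Myod1* probe set gave signals from 3186 to 6778 in the 12 samples. Whether its probes lie in the deleted part of the gene is not given in the sources used here, so this level checks nothing about the genotype. Against the labelled cell type, the skeletal muscle genes *Des*, *Myog*, *Acta1*, *Chrna1* and *Cdh15* were above the low value added to each chip (given below) in 12 of 12 samples by their brightest probe sets.

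On MG_U74Av2 and MG_U74Bv2 the cultures were scanned in different sessions. On MG_U74Cv2 the later P6 pair shared a session with the 1999 samples of 36h, 48h and 3d. According to the instrument records, on MG_U74Av2 and MG_U74Bv2 all 4 times of P10 shared 1 scan session, and on MG_U74Cv2 no scan record was used for P10. The 1999 samples of 36h, 48h and 3d shared a session on each chip, and the 1999 4d sample was scanned in another session. In P6 the earlier pair lay in one session and the later pair in another, so within P6 time and scan session cannot be told apart. The 1999 48h arrays stood apart, with scores of -0.80 and -0.72 on the third principal component of MG_U74Av2 and MG_U74Bv2 and the highest actin 3'/5' signal ratio of the 12 arrays on each chip (1.37, 1.51 and 1.44). Mean deposited signal per array was 2262 to 2437, 1946 to 2140 and 2450 to 2867 on the 3 chips in that order. These are means of processed values, and the brightness of the scans themselves was not compared.

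No probe set passed the test of a shared change between 36h and 48h and days 3 and 4 across the 3 cultures. Opposed changes in the cultures widen the spread in this test, so 0 passed does not mean that no gene changed. Signals were taken to log2 after adding a fixed value per chip (119.8, 270.1 and 213.0), and limma with culture as a block was applied to 21566 probe sets of the 3 chips, with Benjamini-Hochberg adjustment over all of them. Of these, 0 passed at an adjusted p under 0.05 (0%), and the smallest adjusted p was 0.622. At an unadjusted p under 0.05 there were 1425 probe sets (6.61%), of which 700 were higher (3.25%) and 725 lower (3.36%) on days 3 and 4. The log2 differences lay between -1.42 and 1.34 with a median of -0.0097 and a median standard error of 0.19. The 3 cultures differed in the same direction in 4815 probe sets (22.3%), of which 2309 were higher (10.7%) and 2506 lower (11.6%). Signals of a mixed culture do not separate fewer cells of a type from less RNA per cell, and this applies to each difference below.

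The change over time differed between the cultures in a small set of genes, among them genes of the sarcomere, of fusion and of muscle metabolism. In a limma model with an interaction of culture and time pair, 29 of 21566 probe sets passed (0.134%), and 2583 had an unadjusted p under 0.05 (12%). The spread in this model is that between the neighbouring times of a pair within a culture, as no culture has replicates at a time. Of the 29 probe sets, 27 carry a single gene symbol, for 26 genes. By 1 probe set per gene, 23 of 11459 genes passed, of which 9 are on the sarcomere list, 2 on the list of fusion and adhesion, and 1 each on those of muscle transcription factors, calcium release, muscle energy supply and lipid synthesis. In 22 of the 29 probe sets the signal was lower on days 3 and 4 in 1999 and higher in P6, and in 3 the reverse. In 22 of the 29 the difference in P10 lay between those of 1999 and P6. By pairs of cultures, most calls were for P6 and 1999, whose differences differed in 102 probe sets (0.473%, with 2972 at an unadjusted p under 0.05, 13.8%). For P10 and 1999 there were 0 (0%, with 1557 at an unadjusted p under 0.05, 7.22%). For P10 and P6 there were 3 (0.0139%, with 2175 at an unadjusted p under 0.05, 10.1%). A pair with 0 calls need not have moved alike: in *Tnnc1* P10 exceeded 1999 by 3.39 ± 0.42 (SE; limma, adjusted p 0.0756). The count was 7 without the 1999 48h arrays and 13 without the 1999 4d arrays. With 1999 and P10 alone, each within 1 scan session where a record was used, it was 0 (1423 at an unadjusted p under 0.05).

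**Figure D1:**
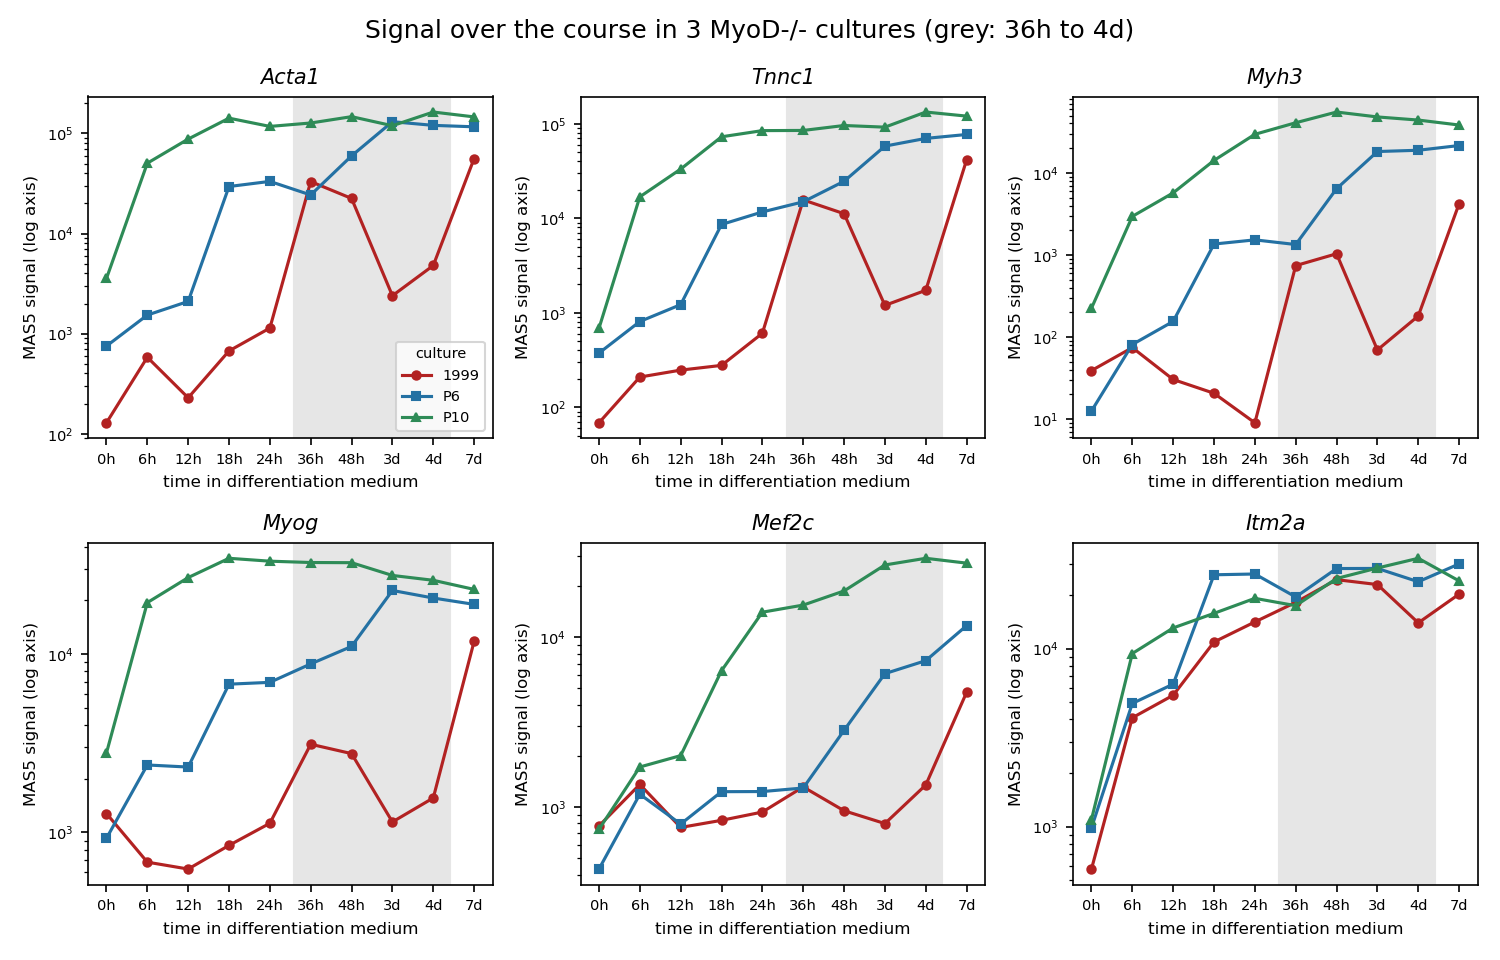
MAS5 signal (log axis) of 6 genes against time in differentiation medium, 1 point per culture and time, with 36h to 4d shaded. In *Acta1*, *Tnnc1* and *Myh3* the 1999 points lie low at 3d and 4d and higher at 7d. Their P6 points are higher at 3d and 4d than at 36h, and their P10 points change little within the shaded times. The *Itm2a* points of the 3 cultures lie close together there.

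*Tnnc1*, which encodes troponin C of slow and cardiac muscle, the calcium sensor of the thin filament, had the smallest interaction p. Its signals at 36h, 48h, 3d and 4d were 15647, 11189, 1198 and 1730 in 1999, 14941, 24645, 58053 and 70070 in P6, and 85045, 95946, 92138 and 133175 in P10. The 1999 and P6 samples were close at 36h and far apart on days 3 and 4, and every P10 sample was above every other sample. The log2 difference was -3.10 in 1999, an 8.55-fold fall (adjusted p 0.0249), 1.73 in P6 (adjusted p 0.0527) and 0.29 in P10. P6 exceeded 1999 in this difference by 4.82 ± 0.42 (SE; limma, adjusted p 0.00577). Pooled over the cultures the difference was -0.36 ± 0.61.

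*Acta1*, the skeletal muscle actin of the thin filament, had the same pattern. Signals were 33054, 22427, 2393 and 4796 in 1999, 24286, 59692, 131072 and 120450 in P6, and 127201, 147141, 119479 and 163656 in P10. The log2 differences of -2.96, 1.72 and 0.03 in 1999, P6 and P10 differed between cultures (limma interaction, adjusted p 0.0481), while none of them passed within its culture. The 1999 culture had given 1137 at 24h and gave 56165 at 7d, so its values of days 3 and 4 were low between higher values at 36h and at 7d. P10 was already at 117570 at 24h and at 146357 at 7d.

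*Myl4*, an embryonic and atrial myosin light chain, had signals of 25074, 18699, 1509 and 3114 in 1999, 26999, 52086, 103286 and 103924 in P6, and 102105, 119281, 104047 and 139453 in P10. It fell 9.49-fold in 1999 (log2 -3.25, adjusted p 0.0366) and the differences of 1.46 in P6 and 0.13 in P10 did not pass. A second *Myl4* probe set, at 910 to 3498, had differences of -0.42, -0.65 and 0.45 and an interaction p of 0.0847, so the probe sets of this gene disagree for P6. *Tnni2*, troponin I of fast muscle, was at 490, 385, 45.8 and 43.9 in 1999, 454, 543, 1333 and 1470 in P6, and 1417, 1994, 2274 and 2510 in P10. Both later 1999 signals are under the added value of 119.8, so its fall in 1999 (log2 -1.75, adjusted p 0.0366) is limited by background, and it rose in P6 (1.30, adjusted p 0.0356).

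*Mybph*, a myosin binding protein of the thick filament, ran from 6982 and 5717 to 968 and 1559 in 1999, from 6412 and 12194 to 32178 and 35162 in P6, and stayed between 53007 and 60940 in P10. It rose 3.76-fold in P6 (adjusted p 0.0398), and the 1999 difference of -2.25 had an adjusted p of 0.0733. *Smyd1*, a muscle-restricted methyltransferase needed for myosin assembly, was at 157, 201, 29.0 and 31.1 in 1999, 391, 482, 1400 and 1109 in P6, and 3162, 3495, 3790 and 4041 in P10. The *Smyd1* signals of the 3 cultures did not overlap, and the P6 rise was 2.46-fold (adjusted p 0.0302). Both later 1999 signals of *Smyd1* are under the added value of 119.8. Other thick and thin filament genes with a passed interaction were *Tnnt2*, *Tnnt3*, *Mybpc1*, *Myh8* and *Xirp1*, with log2 differences of -1.83 to -1.07 in 1999 and of 1.47 to 2.91 in P6. *Mybpc1* was lower in 1999 (-1.38) and higher in P6 and P10 (2.91 and 1.30), and its 2 further probe sets had interaction adjusted p of 0.0566 and 0.0563. *Myh8*, the perinatal myosin heavy chain, rose 7.33-fold in P6 from signals of 90.5 and 435 to 2193 and 2592.

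The regulator *Myog*, which encodes myogenin, was among the 29. Signals were 3123, 2767, 1144 and 1561 in 1999, 8815, 11048, 22764 and 20647 in P6, and 32666, 32592, 27639 and 25961 in P10. The cultures did not overlap at these 4 times, in the ascending order 1999, P6, P10, and the P6 rise of 2.18-fold passed (adjusted p 0.0475). P6 exceeded 1999 by 2.20 ± 0.26 on the log2 scale (SE, adjusted p 0.0131). At 7d *Myog* was at 11798 in 1999, 19022 in P6 and 23084 in P10, closer together than at any of the 4 times compared.

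*Mymk*, which encodes the fusion protein myomaker, had signals of 20729, 28139, 3629 and 6843 in 1999, 30864, 49263, 86748 and 94463 in P6, and 141344, 149595, 149232 and 158063 in P10. Its differences of -2.21, 1.21 and 0.08 differed between cultures (adjusted p 0.0481). *Itgb1bp2*, or melusin, a muscle-specific partner of integrin, and *Tmem182*, a muscle membrane protein, had the same pattern, at -1.74, 1.97 and 0.11 and at -1.90, 1.60 and 0.34, and *Tmem182* rose in P6 (adjusted p 0.0475). *Cav3*, the caveolin of the muscle membrane, passed with both of its probe sets. The probe set without a suffix read 1126, 1170, 408 and 473 in 1999, 931, 2225, 9189 and 9988 in P6, and 10765, 12744, 16270 and 19160 in P10, a 6.18-fold rise in P6 (adjusted p 0.0302). *Srl*, or sarcalumenin, which binds calcium in the sarcoplasmic reticulum, rose in P6 (1.83, adjusted p 0.0352) from 5542 and 8445 to 25028 and 25160.

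*Cox6a2*, the heart and muscle form of a cytochrome c oxidase subunit, was at 878, 635, 120 and 169 in 1999, 1749, 1232, 5375 and 5332 in P6, and 5912, 8123, 10916 and 10135 in P10. Its rise in P6 was 3.44-fold (adjusted p 0.0302) and its difference in 1999 was -1.72 (adjusted p 0.0733). *Fst*, or follistatin, the secreted binder of activin and myostatin, rose 4.08-fold in P6 (adjusted p 0.0302) by the probe set that passed, at 440, 291, 2044 and 2596. The brighter *Fst* probe set, at 965 to 34553, had an interaction p of 0.105 and a difference of 0.40 in 1999, where the other had -0.62.

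In *Cited2*, *Wdr41* and *Elovl6* the opposed cultures were P6 and P10. *Cited2*, a transcriptional co-regulator, was steady in 1999 at 14558, 16460, 16252 and 14648, fell from 12431 and 14023 to 6784 and 6262 in P6 (adjusted p 0.0398), and was at 4572, 4198, 10844 and 10061 in P10. *Wdr41*, a WD-repeat protein, stood at 1040 to 1432 in 1999, fell from 1139 and 1229 to 290 and 236 in P6 (adjusted p 0.0302), and was at 268, 328, 1297 and 1075 in P10. *Elovl6*, an elongase of long-chain fatty acids, rose in P6 from 70.6 and 47.2 to 450 and 620 (adjusted p 0.0302) and read 716, 771, 408 and 317 in P10. Both earlier P6 signals of *Elovl6* are under the added value of 119.8. Another *Elovl6* probe set was not tested and read 309, 25.1, 215 and 274 in P6. *Cited2*, *Wdr41* and *Elovl6* are the genes for which P10 and P6 differed (adjusted p 0.013 each, log2 differences of 2.24 ± 0.22, 2.80 ± 0.27 and -2.71 ± 0.27, SE). *Sfswap*, a splicing regulator, was at 340, 495, 2064 and 2093 in 1999 and at 1864, 2608, 552 and 412 in P6, where it fell (-1.73, adjusted p 0.0398), but its other tested probe sets had differences of 0.79 and -0.02 in P6. *Mycl*, of the Myc family of transcription factors, had differences of 0.94 in 1999, -1.05 in P6 and -1.14 in P10, so that 1999 was the opposed culture. *Lrrc14b* read 973, 1833, 369 and 308 in 1999, 212, 234, 1255 and 1257 in P6, and 923, 1347, 279 and 515 in P10, with P6 alone on the higher side, and *Tspan13*, a tetraspanin, had differences of -0.85, 0.85 and 0.96, again with 1999 opposed to the others.

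**Figure D2:**
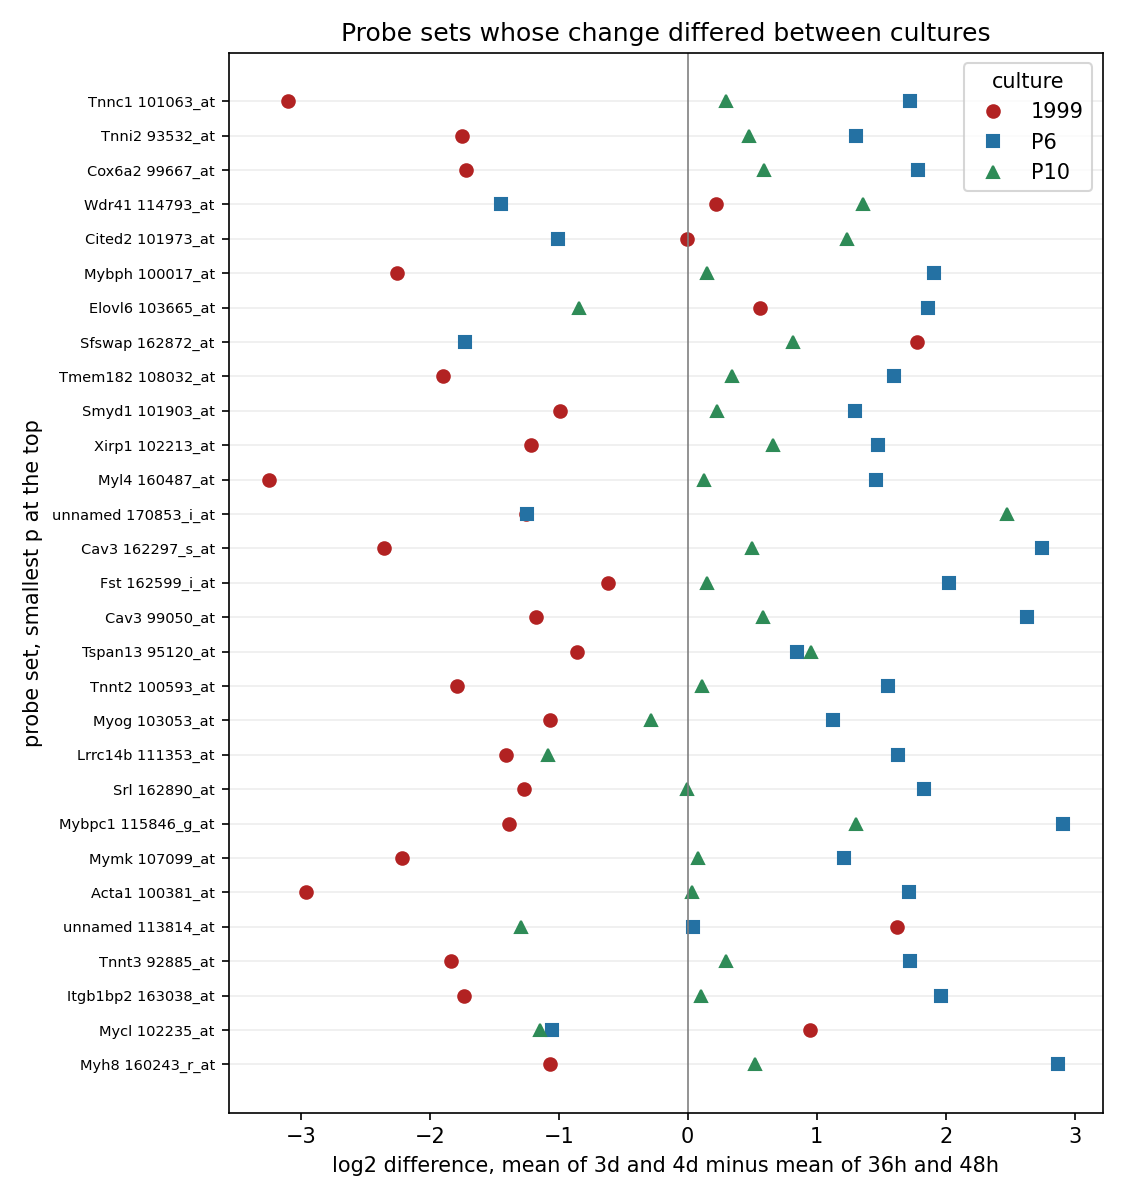
Log2 difference (mean of 3d and 4d minus mean of 36h and 48h, after the added value) in each culture for the 29 probe sets that passed the interaction test, smallest p at the top. Most rows have 1999 on the left, P10 near 0 and P6 on the right, and *Wdr41*, *Cited2* and *Elovl6* are the rows with P6 and P10 on opposite sides that passed the test of that pair.

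Promoters are shown as examples for 4 of the genes that were lower in 1999 and higher in P6, a pattern that other genes share. RefSeq promoters on GRCm38.p6, from 250 bases before to 50 after the start, were held for 18 of the 26 genes. The sequences are those of *Acta1* (chr8:123894726-123895025, minus strand), *Mybph* (chr1:134193198-134193497, plus strand), *Cav3* (chr6:112459255-112459554, plus strand) and *Tnnc1* (chr14:31208062-31208361, plus strand), each written 5′ to 3′ along the gene with matches to the motifs CAGCTG, MEF2 site and CArG box in capitals.
Acta1: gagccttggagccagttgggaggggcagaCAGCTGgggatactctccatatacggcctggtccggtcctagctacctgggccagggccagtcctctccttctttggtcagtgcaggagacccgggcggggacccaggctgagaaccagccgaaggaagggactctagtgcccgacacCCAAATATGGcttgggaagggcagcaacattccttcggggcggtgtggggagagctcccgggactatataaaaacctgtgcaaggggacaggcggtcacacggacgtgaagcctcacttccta
Mybph: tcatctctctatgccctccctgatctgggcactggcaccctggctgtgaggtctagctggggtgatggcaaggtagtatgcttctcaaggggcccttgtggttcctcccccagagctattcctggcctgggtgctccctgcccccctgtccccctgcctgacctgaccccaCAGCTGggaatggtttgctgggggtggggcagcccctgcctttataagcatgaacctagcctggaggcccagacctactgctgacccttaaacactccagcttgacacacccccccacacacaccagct
Cav3: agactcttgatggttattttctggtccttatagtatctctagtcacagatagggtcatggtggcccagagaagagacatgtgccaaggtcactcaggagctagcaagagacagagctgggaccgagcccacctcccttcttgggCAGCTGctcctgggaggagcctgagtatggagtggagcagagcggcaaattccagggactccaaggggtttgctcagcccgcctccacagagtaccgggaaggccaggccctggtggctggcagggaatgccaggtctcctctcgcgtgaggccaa
Tnnc1: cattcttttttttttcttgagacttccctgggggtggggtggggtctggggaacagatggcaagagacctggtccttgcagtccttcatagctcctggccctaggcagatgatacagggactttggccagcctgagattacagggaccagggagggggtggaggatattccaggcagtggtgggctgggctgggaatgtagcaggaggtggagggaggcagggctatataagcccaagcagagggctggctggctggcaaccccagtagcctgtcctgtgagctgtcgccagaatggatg
In *Acta1* a CAGCTG began 221 bases before the start and a CArG box, the site of serum response factor, 73 bases before it. The CAGCTG of *Mybph* began 79 and that of *Cav3* 106 bases before the start, and the *Tnnc1* window held no match to the 3 motifs. Both strands were searched, CAGCTG reads alike on either strand, and each CAGCTG is also one of the general E boxes CANNTG. The motif CAGCTG was present in 7 of the 18 promoters (38.9%) against 16.1% of 27025 RefSeq promoters of the same length, and CANNTG in 13 (72.2%) against 72.1%. The 4 shown do not stand for the 18. Among other genes with the same pattern, *Tmem182*, *Tnnt2* and *Mybpc1* held a CAGCTG. *Smyd1*, *Myl4*, *Myog*, *Myh8*, *Lrrc14b* and *Tspan13* held none. A MEF2 site was present in 2 (11.1% against 3.26%) and a CArG box in 1 (5.56% against 1.57%). A match is a description of these letters and not a binding site.

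Within single cultures, each with 2 samples against 2 and the spread shared over cultures, most calls were in P6. The 2 samples of a pair are neighbouring times of 1 culture and not replicates. These p-values therefore measure the spread between neighbouring times and not between replicates of a culture at a time. In P6 62 probe sets passed (0.287%), 48 of them up (0.223%) and 14 down (0.0649%). In 1999 3 passed, all of them lower (0.0139%; *Tnnc1*, *Tnni2* and *Myl4*). In P10 0 passed (0%, with 1512 at an unadjusted p under 0.05, 7.01%). At an unadjusted p under 0.05 there were 1707 probe sets in 1999 (7.92%) and 2983 in P6 (13.8%). Besides the genes above, the P6 rises took in *Atp2a1* and *Atp2a2*, the calcium pumps of the sarcoplasmic reticulum, *Pfkm*, *Gys1* and *Art1* of muscle metabolism and surface modification, *Capn3*, a muscle protease, and *Klhl41*, a sarcomere-linked ubiquitin ligase adaptor. *Atp2a1* in P6 read 2434, 5418, 14590 and 16102 (log2 2.04, adjusted p 0.0475). *Klhl41* read 758, 1773, 5161 and 7661 (2.18, adjusted p 0.0384). *Hspb8*, a small heat shock protein of muscle, rose from 2710 and 3353 to 7549 and 8449 in P6 (1.37, adjusted p 0.0302) and read 1467 to 1722 in 1999.

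Falls in P6 included *Fbxo32*, or atrogin-1, the muscle ubiquitin ligase that rises in atrophy, which went from 2423 and 3065 to 465 and 515 (log2 -1.98, adjusted p 0.0302). Its 1999 signals were 897 to 1660, and its P10 signals were 142 to 352. A second *Fbxo32* probe set read 3258, 3974, 1049 and 1594 in P6 (-1.30, adjusted p 0.0575). *Tcf7l1*, a repressor of Wnt targets, fell from 3123 and 3297 to 1221 and 1567 in P6 (-1.15, adjusted p 0.0342), where 1999 stayed at 2940 to 3265. *Hmg20b*, a subunit of a chromatin repressor complex, fell from 1962 and 2276 to 492 and 497 (-1.64, adjusted p 0.0302). The P6 pairs differ in scan session as well as in time, and the part of the session in these calls cannot be told apart.

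By gene list, the sarcomere genes gave the widest split between cultures. A gene was represented by 1 probe set, and 39 of 46 listed sarcomere genes were tested. Their median log2 difference was -1.15 in 1999, 1.47 in P6 and 0.38 in P10, where the medians of all 11459 genes were -0.015, -0.023 and -0.0071. Days 3 and 4 were higher in 1 of 39 in 1999 (49.2% of all probe sets), 39 of 39 in P6 (49%) and 35 of 39 in P10 (49.3%). Both later samples were below both earlier ones for 33 of 39 in 1999 (20.1% of all probe sets) and above them for 36 of 39 in P6 (20.8%) and 24 of 39 in P10 (19.7%). The interaction passed for 9 of 39 (0.134% of all probe sets) and the contrast of P6 and 1999 for 21 of 39 (0.473%). Pooled over cultures 0 of 39 passed, 4 were higher and 0 lower at an unadjusted p under 0.05, and the median was 0.17.

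The 1999 culture had less sarcomere signal than P10 at the 4 times compared and more at 7d than on days 3 and 4. For 35 of 39 sarcomere genes all 4 P10 samples were above all 4 samples of 1999 (11.4% of all probe sets). The 1999 7d sample was above 3d and 4d for 38 of 39 (29.6%). With the 1999 3d sample alone against 36h and 48h, all in 1 scan session, the median was -1.08. In the fit with culture and session together as a block the pooled median of the list was -0.26, and it was 0.43 without the 1999 48h arrays and -0.298 without P6, against 0.17 with all samples.

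Among single sarcomere genes, *Myh3*, the embryonic myosin heavy chain, was at 742, 1033, 69.6 and 180 in 1999, 1339, 6411, 18199 and 18865 in P6, and 40802, 55114, 48026 and 44002 in P10. Its interaction adjusted p was 0.0916 and its pooled difference 0.16 ± 0.63, so it passed neither test. *Myh1*, a fast adult myosin heavy chain, had a 1999 difference of -3.15 that did not pass, from 3040 and 1730 to 78.0 and 256, and read 20835, 17712, 27822 and 40960 in P10. *Myh4*, another fast adult myosin, was dim, at 11.2 to 964 (0.79 ± 0.41, SE; adjusted p 0.797), and a second *Myh4* probe set rose in P6 (1.62, adjusted p 0.0441), where the first had 2.13 (adjusted p 0.0586). *Actc1*, the cardiac actin that young myotubes also make, was at 12330, 14223, 6215 and 8457 in 1999, 11552, 22232, 48871 and 44593 in P6, and 66425, 77127, 65891 and 79628 in P10 (0.23 ± 0.33, SE; interaction adjusted p 0.0952). A second *Actc1* probe set had differences of -3.07 in 1999, 2.54 in P6 and -0.02 in P10 (limma interaction, adjusted p 0.0526). The 4 genes with an unadjusted p under 0.05 in the pooled comparison were *Myl2*, *Tpm3*, *Lmod2* and *Myoz2*, at 0.70 to 1.08. *Myl2*, the slow and ventricular regulatory light chain, was at 33.1, 72.8, 28.6 and 50.6 in 1999, 187, 50.1, 363 and 611 in P6, and 556, 466, 1706 and 3122 in P10 (1.07 ± 0.31, SE; adjusted p 0.74). Its 1999 signals were all under the added value, and the later signals exceeded the earlier ones in P6 and P10. *Tpm3* stood at 3192, 4210, 8787 and 12859 in P10 and at 2322 to 2766 in 1999.

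Calcium-handling and energy genes showed the split more weakly. Of 24 genes of excitation and calcium release, 21 were lower in 1999 (50.8% of all probe sets) and 23 higher in P6 (49%), with medians of -0.36 and 0.85 and 0.14 in P10. *Ryr1*, the calcium release channel, read 471, 391.6, 189 and 228 in 1999, 188, 1179, 2162 and 3044 in P6, and 3658, 4340, 5346 and 5004 in P10, with an interaction adjusted p of 0.263. *Casq1*, the calcium store protein, had the smallest pooled p of the list (0.76 ± 0.28, SE; p 0.0185, adjusted p 0.74), with 1845, 1894, 3323 and 6538 in P10. Of 23 genes of muscle energy supply, 17 were lower in 1999 (50.8% of all probe sets) and 19 higher in P6 (49%), with medians of -0.30, 0.92 and 0.24 in 1999, P6 and P10. Pooled, 4 were higher at an unadjusted p under 0.05 (*Hk2*, *Ldha*, *Art1* and *Pfkm*) and 0 lower. *Mb*, or myoglobin, was at 1217, 647, 127 and 294 in 1999, 507, 1769, 5806 and 7702 in P6, and 6883, 11043, 15762 and 24958 in P10. *Ckm*, the muscle creatine kinase, was between 481 and 1114 by its representative probe set, and another *Ckm* probe set, at 128 to 2763, had differences of -0.86, 1.52 and 0.11 in 1999, P6 and P10 that its interaction test did not call (adjusted p 0.195).

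Of 16 tested transcription factors of the muscle programme, 0 passed pooled (0% of all probe sets). *Myog* alone passed the interaction by its representative probe set (0.134% of all probe sets). *Mef2c* was at 1313, 951, 799 and 1348 in 1999, 1295, 2829, 6104 and 7278 in P6, and 15463, 18730, 26642 and 29163 in P10. P6 and P10 were higher on days 3 and 4 without overlap and 1999 overlapped (0.76 ± 0.27, SE; p 0.0155, adjusted p 0.74). A further *Mef2c* probe set on the same chip passed in P6 (2.26, adjusted p 0.0429). *Myf6*, or MRF4, the late member of the MyoD family, read 229, 422, 372 and 241 in 1999, 728, 652, 1226 and 1114 in P6, and 1458, 1369, 1901 and 3153 in P10 (0.46 ± 0.18, SE; adjusted p 0.74). *Myf5*, the early member, was between 1965 and 4686 (-0.26 ± 0.20), and *Itm2a*, which encodes a membrane protein, between 13944 and 32136 (0.15 ± 0.18).

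**Figure D3:**
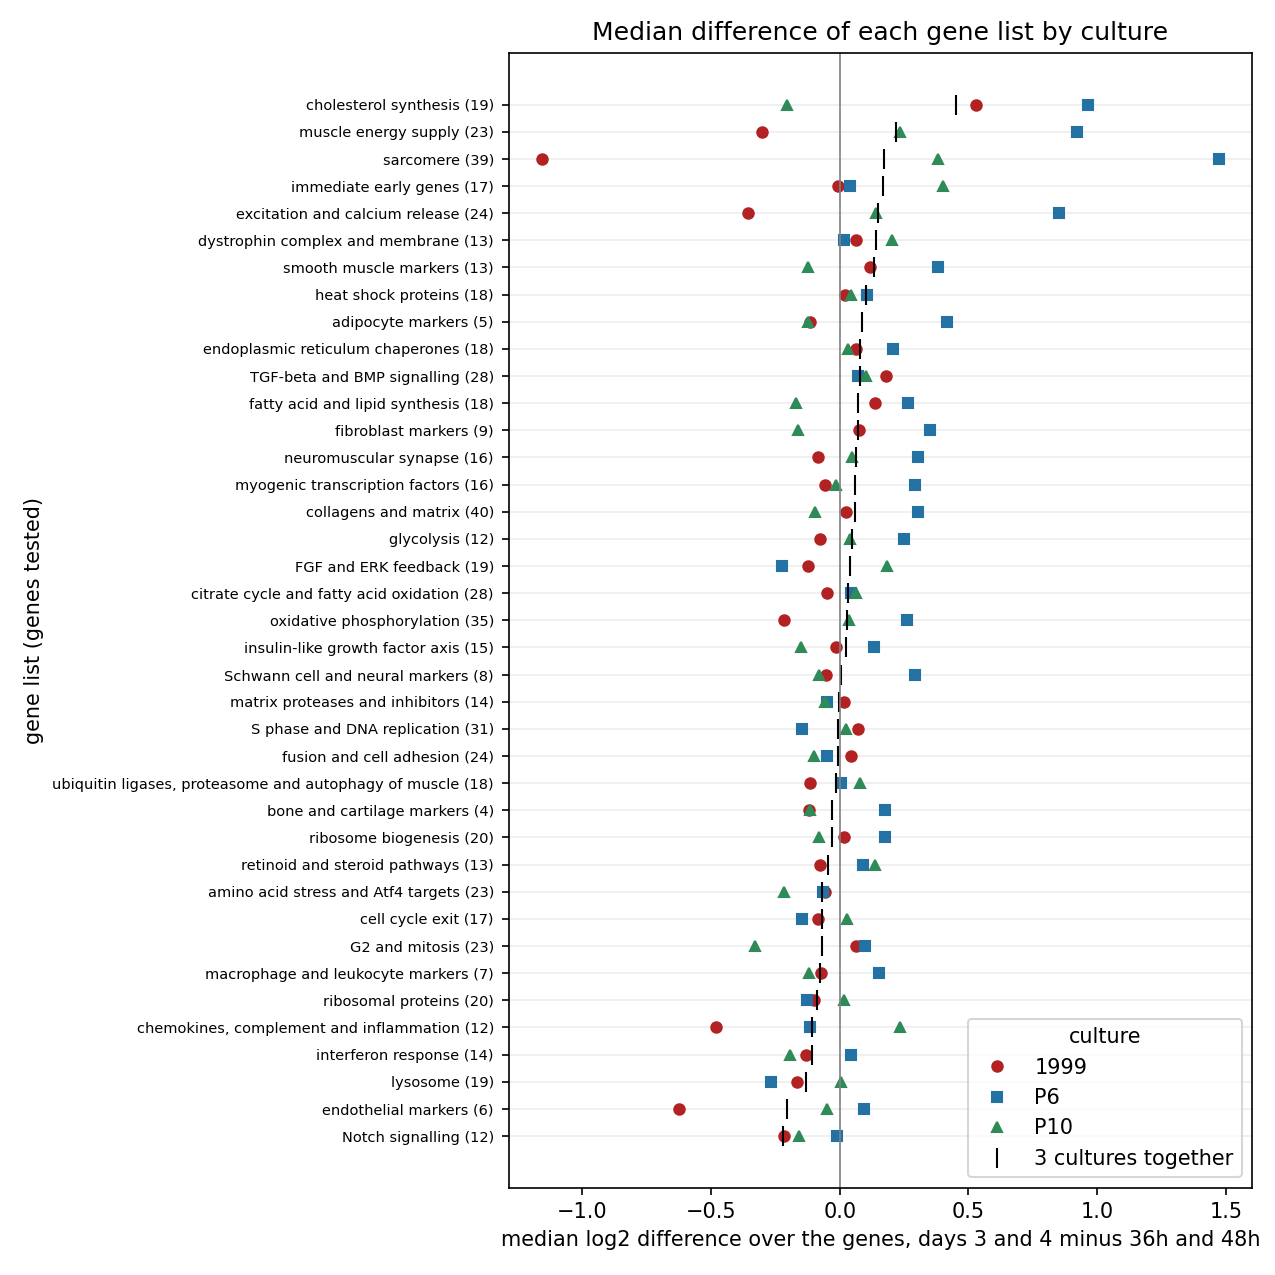
Median log2 difference of each gene list, days 3 and 4 minus 36h and 48h, in each culture (points) and over the 3 cultures together (bars), with the number of genes tested in brackets. The sarcomere list spans from -1.15 in 1999 to 1.47 in P6, the cholesterol synthesis list lies at the top with P10 on the other side of 0, and most other lists lie within 0.5 of 0 in all cultures.

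Among the genes with the smallest pooled p, those given here were chosen for the same sign in the 3 cultures, after their values were seen. The shared sign is therefore not a result, and it held for 22.3% of all probe sets. None of these genes passed with all samples. *Eri3*, of an exoribonuclease family, was at 70.8, 81.6, 632 and 167.5 in 1999, 193, 115, 824 and 740 in P6, and 181, 136, 803 and 837 in P10. Days 3 and 4 were higher in each culture, with log2 differences of 0.97, 1.44 and 1.48 and a pooled 1.30 ± 0.21 (SE; limma, p 4.9e-05, adjusted p 0.622). All 6 earlier signals of *Eri3* and the 1999 4d signal were under the added value of its chip (213.0). Without the 1999 4d arrays *Eri3* was the single probe set to pass (1.48 ± 0.16, adjusted p 0.0436), an alternative chosen after seeing the data.

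*Eef1a2*, the muscle and neuron form of translation elongation factor 1 alpha that replaces *Eef1a1* as muscle matures, read 327, 613, 873 and 905 in 1999, 544, 554, 1022 and 1071 in P6, and 446, 750, 1017 and 1269 in P10. Every later sample was above every earlier sample. The differences were 0.82, 0.80 and 0.84 (pooled 0.82 ± 0.14, SE; adjusted p 0.622). *Baiap2*, a regulator of actin at the membrane, was lower at 678, 724, 561 and 457, then 798, 682, 396 and 458, and 367, 475, 193 and 191 in 1999, P6 and P10 (-0.61 ± 0.10, SE; adjusted p 0.622). Within each culture its later signals were below both earlier ones.

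*Nat8l*, which makes N-acetylaspartate, was at 678, 878, 1436 and 2377 in 1999, 458, 356, 857 and 1606 in P6, and 536, 1006, 1648 and 1626 in P10 (1.07 ± 0.21, SE; adjusted p 0.699). Its probe set carries the suffix for one shared among similar genes. *Dnaja4*, a co-chaperone of the Hsp40 family, was higher by 1.34 ± 0.27 (SE; adjusted p 0.699), with 295, 536, 960 and 1216 in 1999, 136, 94.7, 519 and 1845 in P6, and 1737, 1631, 3183 and 4370 in P10. *Ccn2*, the matricellular protein induced by TGF-beta and by stretch, read 11762, 14431, 13199 and 24382 in 1999, 9034, 12975, 18782 and 19426 in P6, and 10155, 13128, 29911 and 29276 in P10 (0.87 ± 0.19, SE; adjusted p 0.74). In P6 and P10 the pairs of *Ccn2* signals did not overlap and in 1999 they did. *Ppp1r14c*, an inhibitor of protein phosphatase 1, and *Cdc42ep3*, an effector of Cdc42, were higher by 0.70 ± 0.14 and 0.65 ± 0.13 (SE; adjusted p 0.699 each), and *Enpp3*, an ectonucleotidase, by 0.85 ± 0.16.

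**Figure D4:**
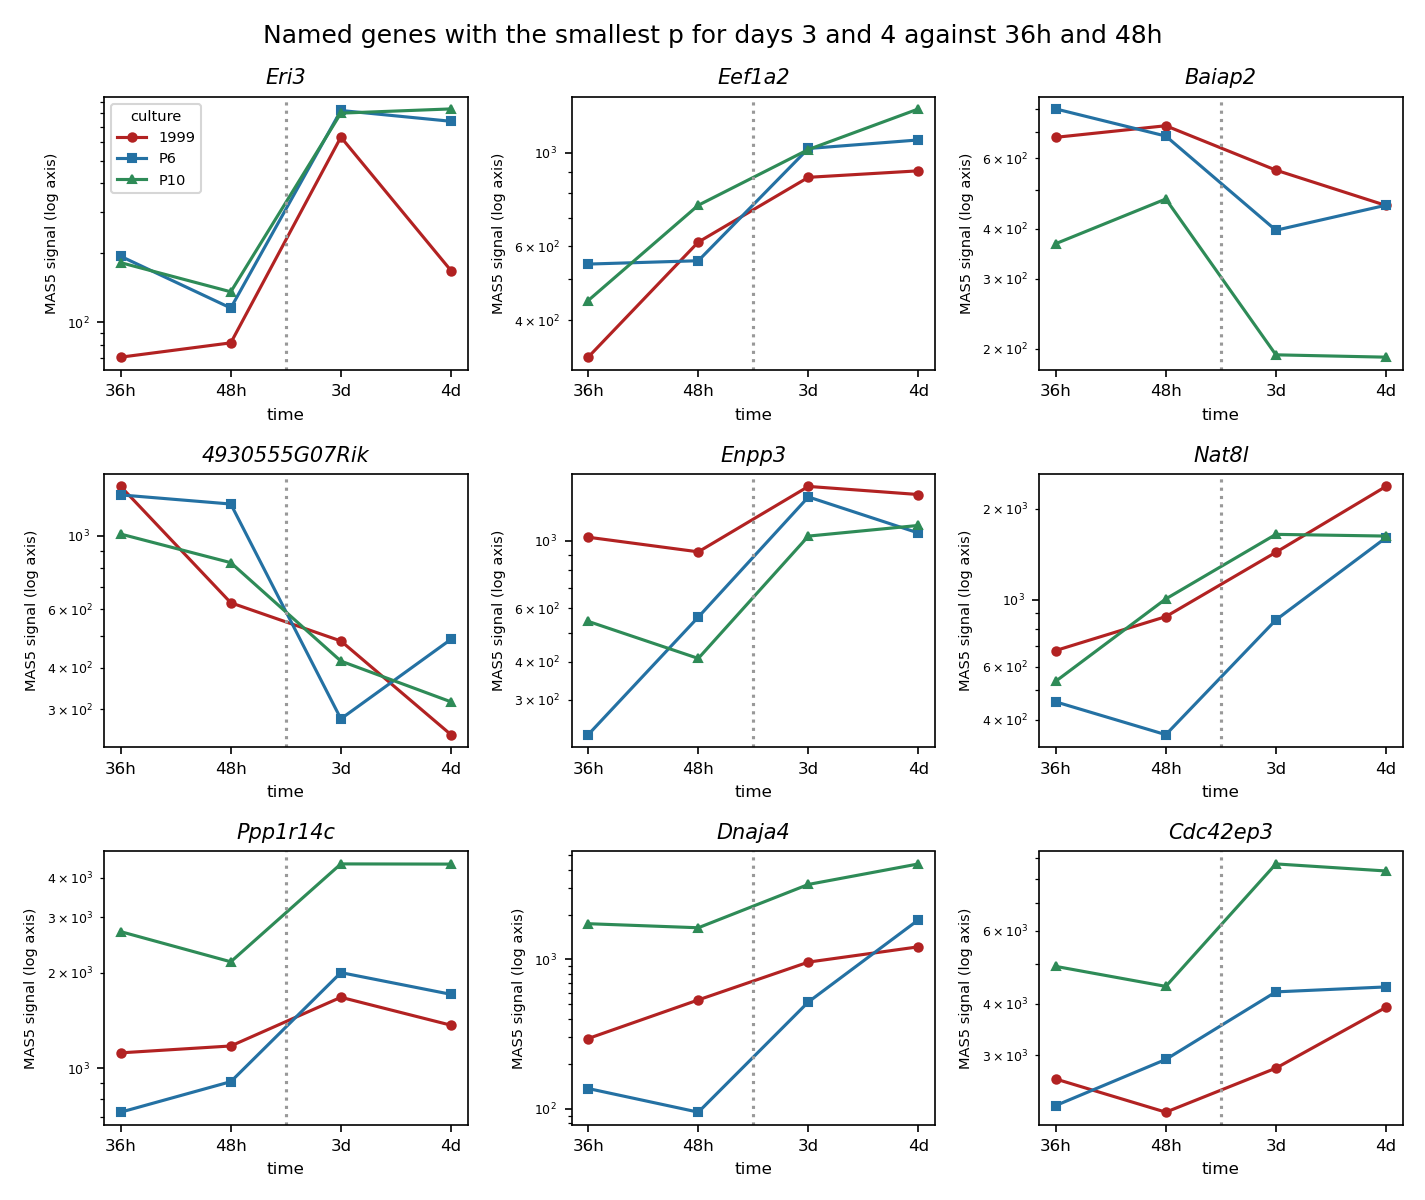
MAS5 signal (log axes that differ by panel) at 36h, 48h, 3d and 4d in each culture for 9 named genes, with a dotted line between the pairs of times. The 9 have the smallest pooled p among named genes chosen for the same sign in the 3 cultures. *Eef1a2* is higher at 3d and 4d in all cultures and *Baiap2* lower, with none passing after adjustment.

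Genes of cholesterol synthesis were the list with the highest pooled median, 0.45 over 19 tested genes. All 19 were higher on days 3 and 4 (48% of all probe sets), 9 at an unadjusted p under 0.05 (3.25%) and 0 after adjustment. By culture 18, 18 and 4 of 19 were higher in 1999, P6 and P10 (49.2%, 49% and 49.3% of all probe sets), with medians of 0.53, 0.96 and -0.20. *Insig1*, the endoplasmic reticulum protein that restrains SREBP activation, was at 269, 217, 565 and 1070 in 1999, 478, 430, 882 and 742 in P6, and 1315, 1709, 2358 and 2373 in P10. Its later signals were above its earlier ones within each culture (0.73 ± 0.15, SE; p 0.000367, adjusted p 0.699). *Sc5d*, a late enzyme of the pathway, read 1060, 826, 1865 and 2750 in 1999, 308, 936, 1479 and 2593 in P6, and 2497, 2542, 3704 and 3318 in P10 (0.98 ± 0.22, SE; adjusted p 0.74), again without overlap in any culture. *Tm7sf2*, a sterol reductase, differed by 0.46 ± 0.10 (adjusted p 0.74).

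No gene of the list passed the test of a difference between cultures (0 of 19, against 0.134% of all probe sets). At an unadjusted p under 0.05 in that limma interaction test there were 9 of 19 (12% of all probe sets). The values of the first steps of the pathway are given as a description. *Idi1*, an isomerase of isoprenoid units, was at 1615, 2372, 2088 and 7474 in 1999, 717, 937, 3871 and 8677 in P6, and 11874, 9959, 8266 and 9273 in P10. *Hmgcs1*, which makes the substrate of HMG-CoA reductase, read 1226, 1332, 1374 and 2851 in 1999, 834, 1196, 3117 and 3798 in P6, and 5378, 6222, 4730 and 5105 in P10. In 1999 these genes were high at 4d alone, the sample scanned in another session, and P10, in 1 session, was level or lower. *Dhcr7*, the last reductase of the pathway, rose in P6 (1.78, adjusted p 0.0384), from 281 and 238 to 1058 and 1327. The list's median was 0.09 for the 1999 3d sample against 36h and 48h within 1 session, which leaves out 4d. It was -0.08 in the fit with culture and session as a block, in which time and session coincide within P6, against the pooled 0.45. The part of the session in the pooled value was not tested.

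**Figure D5:**
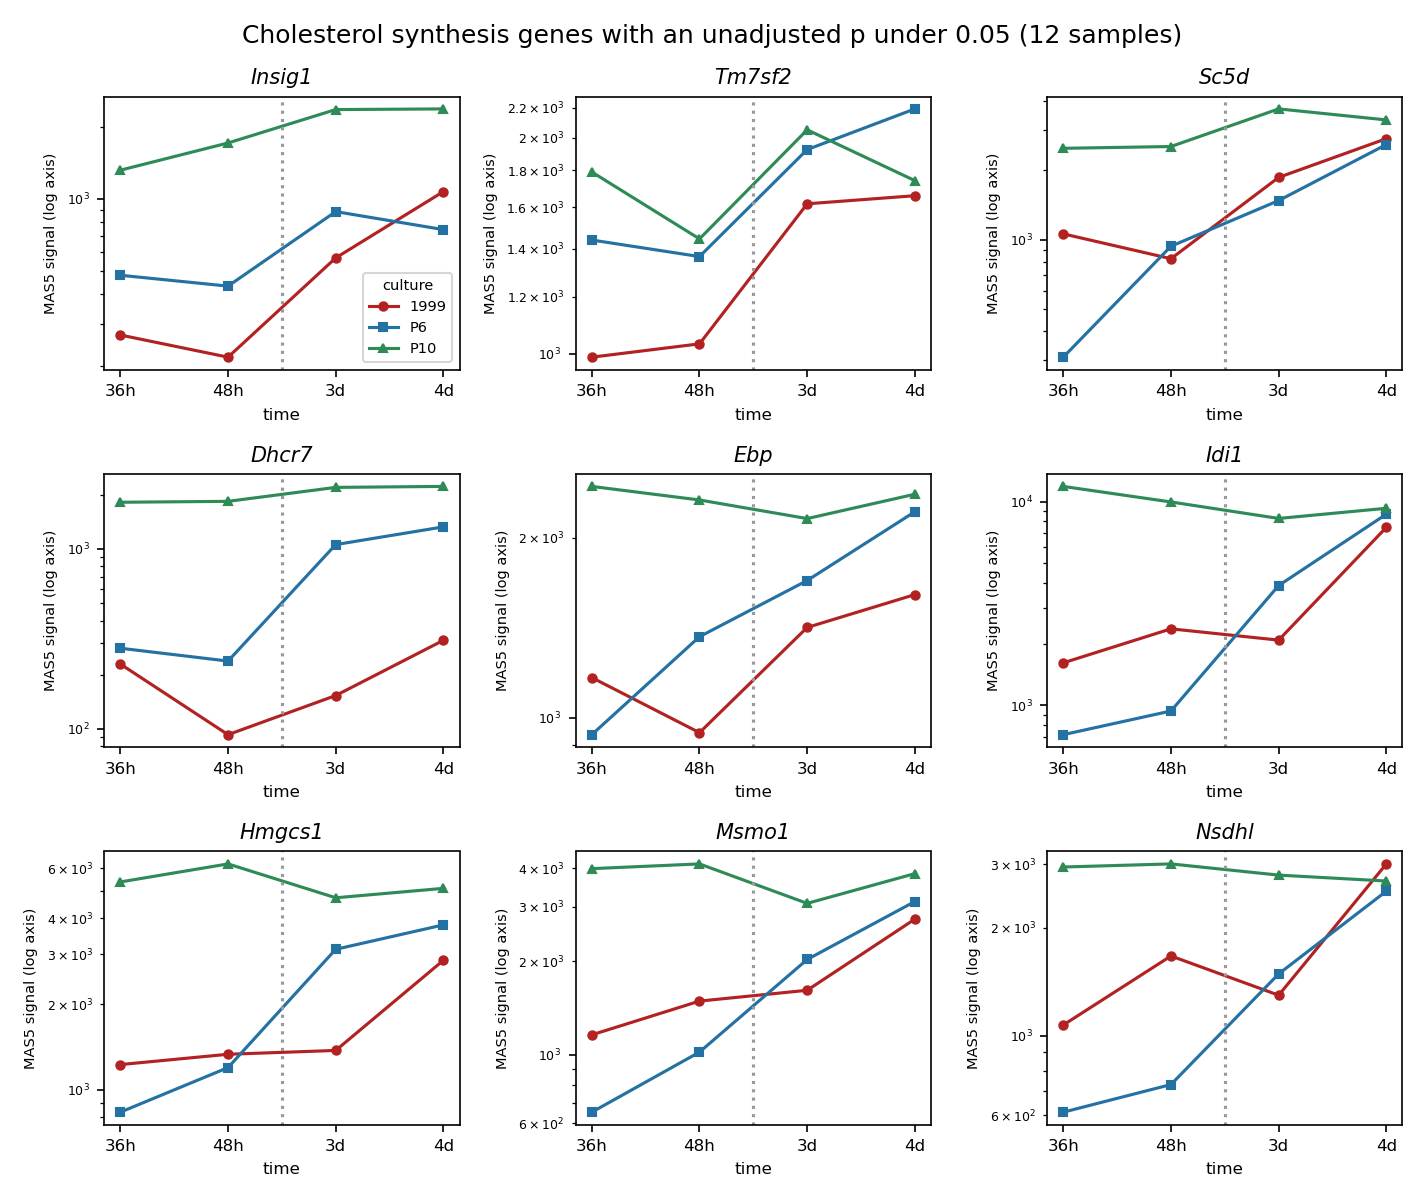
MAS5 signal (log axes that differ by panel) of the 9 cholesterol synthesis genes with an unadjusted p under 0.05, at 36h, 48h, 3d and 4d in each culture. The P6 points are higher at 3d and 4d than at 36h and 48h in every panel, several 1999 lines are high at 4d alone, and the P10 lines of *Idi1*, *Hmgcs1* and *Msmo1* lie lower at 3d than at 36h.

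No single step between neighbouring times passed either. With time and culture in the model, limma called 0 probe sets for 48h against 36h (983 at an unadjusted p under 0.05, 4.56%), 0 for 3d against 48h (953, 4.42%) and 0 for 4d against 3d (743, 3.45%), with smallest adjusted p of 0.987 or more. The median of the sarcomere list was 0.29, 0.0060 and 0.24 at these steps, and that of the cholesterol list 0.0011, 0.20 and 0.54.

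Of 50 listed G2 and mitosis genes 23 had enough signal to be tested, with a median of -0.07 and 0 passed. At an unadjusted p under 0.05, 1 was higher (*Plk1*; 3.25% of all probe sets) and 1 lower (*Smc4*; 3.36%), a share near that of all probe sets. *Mki67* was not tested, with signals of 6.3 to 149 in one probe set and 226 to 554 in the other. *Cdkn1a*, the Cdk inhibitor p21 of cell cycle exit, was between 13794 and 50390 with a pooled difference of 0.07 ± 0.11. *Cdkn1c*, the inhibitor p57, was at 1109, 1214, 1244 and 1492 in 1999, 495, 450, 254 and 200 in P6, and 5090, 2463, 653 and 279 in P10 (-1.10 ± 0.40, SE; adjusted p 0.74). Its signals were lower on days 3 and 4 in P6 and P10 without overlap and not in 1999. *Cdkn2b*, the inhibitor p15, rose in P6 (1.18, adjusted p 0.0384) from 1246 and 1545 to 3063 and 3539. *Ccnd1*, cyclin D1, was at 8421, 6610, 5337 and 5036 in P10 (pooled -0.39 ± 0.15, adjusted p 0.74).

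In the Notch pathway, which holds myoblasts undifferentiated, 10 of 12 tested genes were lower on days 3 and 4 (52% of all probe sets), with a median of -0.22, and 0 passed. The receptor *Notch2* was at 1040, 617, 884 and 542 in 1999, 1803, 1963, 1058 and 767 in P6, and 704, 1015, 496 and 373 in P10 (-0.65 ± 0.18, SE; p 0.00395, adjusted p 0.74). The receptor *Notch3* differed by -0.33 ± 0.12 and was lower in all 3 cultures. Among fusion and adhesion genes, *Jam2*, a junctional adhesion molecule, was higher (0.71 ± 0.19, SE; 6861, 9320, 12862 and 13063 in P10) and *Vcam1*, the vascular adhesion molecule that myoblasts also carry, lower (-0.58 ± 0.18, SE), each with an adjusted p of 0.74. *Vcam1* also differed in level by culture, at 16850, 8998, 11495 and 6392 in 1999 against 1868, 1403, 1167 and 958 in P10. *Musk*, the receptor kinase that organises the neuromuscular synapse, was higher by 0.73 ± 0.24 at low signals of 59.8 to 907, and it was the 1 gene of its list with an unadjusted p under 0.05. *Hspb3*, a small heat shock protein of muscle, was higher in all 3 cultures (1.00 ± 0.28, SE; adjusted p 0.74). Among 35 tested subunits of oxidative phosphorylation, 28 were lower in 1999 (50.8% of all probe sets) and 34 higher in P6 (49%), with medians of -0.21, 0.26 and 0.04 in 1999, P6 and P10, and 0 passed.

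No tested marker of the 7 lists of other cell types passed in the pooled comparison. As 0 of 21566 probe sets passed there (0%), this says nothing particular about the markers. The summed signal of 9 tested of 17 fibroblast markers was 80875 to 145734 at 36h and 48h and 90647 to 150556 on days 3 and 4. That of 13 of 14 smooth muscle markers, which myoblasts share in part, was 85550 to 123050 and 103981 to 156539. Endothelial markers (6 of 14) summed to 10072 to 14690 and 8777 to 16730, macrophage and leukocyte markers (7 of 19) to 9197 to 15746 and 8547 to 13531, and adipocyte markers (5 of 16) to 7894 to 23767 and 8877 to 23376. Schwann cell and neural markers (8 of 15) summed to 28864 to 70589 and 29296 to 64235, and bone and cartilage markers (4 of 13) to 6313 to 13991 and 7425 to 12044. The pairs of times overlapped for each list. The endothelial cadherin *Cdh5* was under the added value in 12 of 12 samples, as was the leukocyte marker *Ptprc* by 2 of its 3 probe sets. Other defining markers were above it: the endothelial *Pecam1* in 9 of 12 samples, the macrophage marker *Cd68* in 12 by one probe set and 1 by another, the adipocyte hormone gene *Adipoq* in 9, the glial *Sox10* in 12 by 2 probe sets and 2 by another, and the fibroblast collagen *Col1a1* in 12. The adipocyte gene *Fabp4* was above the added value in 3 of 12 samples and the fibroblast marker *Thy1* in 1. *Pdgfra*, another fibroblast marker, was above it in 12, 9 and 0 samples by its probe sets. The part of such cells in the differences was not tested.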

How the data were processed

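Labelled RNA of 12 MyoD-/- samples was read on 3 chips, and the deposited values are probe set signals in linear intensity units, made by the authors with MAS5 per the submitters' processing notes, where no version is given. Depth has no meaning for arrays, and the number of samples limits the precision. Control probe sets, 66 per chip, were left out. The 25th percentile of each chip's table was added, log2 was taken of the sum of this value and the deposited signal, and probe sets above the chip median on at least 3 of 12 arrays were kept: 6882 of 12488, 7304 of 12477 and 7380 of 11934 on MG_U74Av2, MG_U74Bv2 and MG_U74Cv2. Fold changes are on this scale and understate those of dim genes.

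Each chip was fitted with limma 3.58.1 in R 4.3.3 (lmFit and eBayes, two-sided, culture as a block), and p-values were adjusted by Benjamini-Hochberg over the 3 chips together, with a threshold of 0.05. The interaction of culture with the pair of times, the differences within each culture and the steps between neighbouring times were contrasts of further fits. The block rests on the culture names that the titles share: deviations of samples of one culture had median correlations of 0.63, 0.417 and 0.182 on the 3 chips, against -0.324, -0.195 and -0.0555 between cultures. For 39 gene lists of 977 genes, a gene was represented by the probe set with the highest mean signal, those without a suffix first. The pooled and the interaction fits were tested on simulated data.

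The comparison, the lists and the tests were chosen with earlier results of these data known. Genes were named by rule: 16 fixed genes, those that passed, list members that passed, and the 10 with the smallest interaction p. The other genes named, including those with the smallest pooled p, those that passed in 1 culture only and further list members, were chosen after their values were seen. Alternatives were another added value, other filters, quantile normalization, other blocks and leaving out a culture, a time or an array.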

Additional observations from a re-analysis of the deposited data

Results flagged for a closer look

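In 29 probe sets the difference between days 3 and 4 and 36h and 48h was not the same in the 3 cultures, by the limma interaction test. The 10 named genes with the smallest p were *Tnnc1* and *Tnni2* (adjusted p 0.0171 each), *Cox6a2* (0.0193), and *Wdr41*, *Cited2*, *Mybph*, *Elovl6*, *Sfswap*, *Tmem182* and *Smyd1* (0.0215 each). For *Tnnc1*, *Tnni2*, *Cox6a2*, *Mybph*, *Tmem182* and *Smyd1* the sign was negative in 1999 and positive in P6 and P10. For *Sfswap* it was negative in P6 alone, as it was for *Wdr41*, whereas *Elovl6* was lower in P10 alone. Within P6 time and scan session cannot be told apart.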

How the results depend on the processing

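The pooled comparison gave 0 called probe sets under every planned setting, including the fit with no replicate block, and 0 when any one culture was left out. The exception was 1 probe set, *Eri3*, without the 1999 4d array, an alternative chosen after seeing the data. The count of 29 probe sets that differed between cultures depended more on the settings. It was 10 with no filter, 19 with an added value of 16, 83 with the chip median added and 24 with quantile normalization. Of the 29, chosen from the same samples, 27, 28 and 28 kept an unadjusted p under 0.05 in the limma interaction test without 1999, P6 and P10. The count of passed probe sets with a culture left out was 0 to 4, where fewer samples were fitted. It was 13 without the 1999 4d array, 7 without the 1999 48h array and 0 with 1999 and P10 alone within scan sessions. Pairs of cultures gave 102 for P6 and 1999, 0 for P10 and 1999 and 3 for P10 and P6. The cause of these changes was not tested. The pooled sarcomere median ranged from -0.298 without P6 to 1.03 without 1999, and the cholesterol median from 0.198 without P6 to 0.811 without P10. Single steps gave 0 under each setting tried. With 1 sample per culture and time, a difference within a culture rests on 2 samples against 2, taken at neighbouring times and not as replicates.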
